A study of Mus musculus with 4 samples.

Results

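The 9 genes described here encode enzymes that make heme or break it down, out of 49585 genes with deposited values. They were chosen by symbol, namely Alas1, Alad, Uros, Urod, Cpox, Ppox and Fech for synthesis and Hmox1 and Hmox2 for breakdown. RNA came from 4T1–HM and 4T1–LM, clones of high and low metastatic capacity, each grown from 1 cell of the murine mammary carcinoma line 4T1. Each clone was cultured for 48 h with 50 μmol/L of deferasirox (DFX), an iron chelator, dissolved in DMSO, or with DMSO alone, which gives the libraries HM_DFX, HM_Ctrl, LM_DFX and LM_Ctrl. There was 1 library per condition, each group is a single clone, and no difference below has a replicate check or a p–value.

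Heme is an iron–containing porphyrin that serves as the cofactor of cytochromes, catalases and many other proteins. Its synthesis begins in the mitochondrion, where 5–aminolevulinate synthase joins glycine and succinyl–CoA, continues in the cytosol up to coproporphyrinogen, and returns to the mitochondrion, where ferrochelatase inserts ferrous iron into protoporphyrin. Heme oxygenases open the ring and release iron, carbon monoxide and biliverdin. Heme itself restrains the first enzyme and releases the heme oxygenase gene Hmox1 from its repressor BACH1.

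The deposited values are FPKM, fragments (read pairs) per kilobase of gene, scaled to the size of the library, so levels of different genes can be compared. Whole fragment numbers were recovered from them, with totals between 14363065 and 21883855 fragments per library. Intervals are exact binomial intervals of these fragments at 95% and cover counting error only, not the variation between cultures. For change, log2 of the ratio of FPKM + 1 was used, and genes that reached 2-fold here, written below as rose or fell, were called, though the + 1 understates the change of low genes. Genes with FPKM 1 or more in any library, 12669 in all, were tested, and all 9 were among them. The 7 epithelial markers listed were all above this level, with a summed FPKM that was lower with DFX (1767 without and 565 with it in 4T1–HM, 2298 and 1072 in 4T1–LM). Krt19 went the other way in 4T1–LM, with an FPKM of 46.4 without and 103 with DFX, and had 101 and 87.9 in 4T1–HM. The other listed epithelial markers were lower with DFX in both clones. The part of these shifts in the changes below was not tested. By contrast, the 10 erythroid markers, Alas2 and the globins included, reached an FPKM of at most 0.450, with 4 of them at 0 throughout. Of 6 macrophage markers, 3 were at 0 in all libraries and Cd68, which is also found in lysosomes of other cells, was the single one above an FPKM of 1, 12.9 with DMSO and 37.4 with DFX in 4T1–HM, and 12.3 and 83.1 in 4T1–LM. Of 4 fibroblast markers, Pdgfra was the single one above an FPKM of 1. It had 3.18 with DMSO and 4.51 with DFX in 4T1–HM, and 2.77 and 5.50 in 4T1–LM. The 3 hepatocyte markers reached an FPKM of at most 0.056. Vegfa and Slc2a1, targets of the hypoxia–inducible factor HIF that rise when iron–dependent prolyl hydroxylases are inhibited, served as a check of the chelator. In 4T1–LM both rose, Vegfa from an FPKM of 30.9 to 74.5 and Slc2a1 from 40.3 to 231. In 4T1–HM the FPKM without and with DFX was 31.9 and 63.5 for Vegfa and 107 and 207 for Slc2a1. Their log2 values there were 0.97 and 0.95, just under the 2-fold threshold.

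With DFX, the breakdown gene Hmox1 rose in both clones, and 4 of the 7 synthesis genes (Alad, Urod, Ppox and Fech) fell in 4T1–HM. None of the 7 fell by 2-fold in 4T1–LM, although 5 of them had lower values with DFX there too. Cpox did not share this decrease in either clone, and for Alas1 the interval of the ratio lay above 1 in 4T1–LM but included 1 in 4T1–HM. Of all genes tested, 12.4% fell and 6.93% rose by this measure in 4T1–HM, and 8.72% fell and 7.09% rose in 4T1–LM. Lower genes made up 64.1% of those called in 4T1–HM, and 53.3% after median–ratio scaling. The median log2 value of the 7 synthesis genes was −1.02 in 4T1–HM, where that of all genes tested was −0.10, and −0.38 in 4T1–LM, where that of all genes was −0.04.

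**Figure D1:**
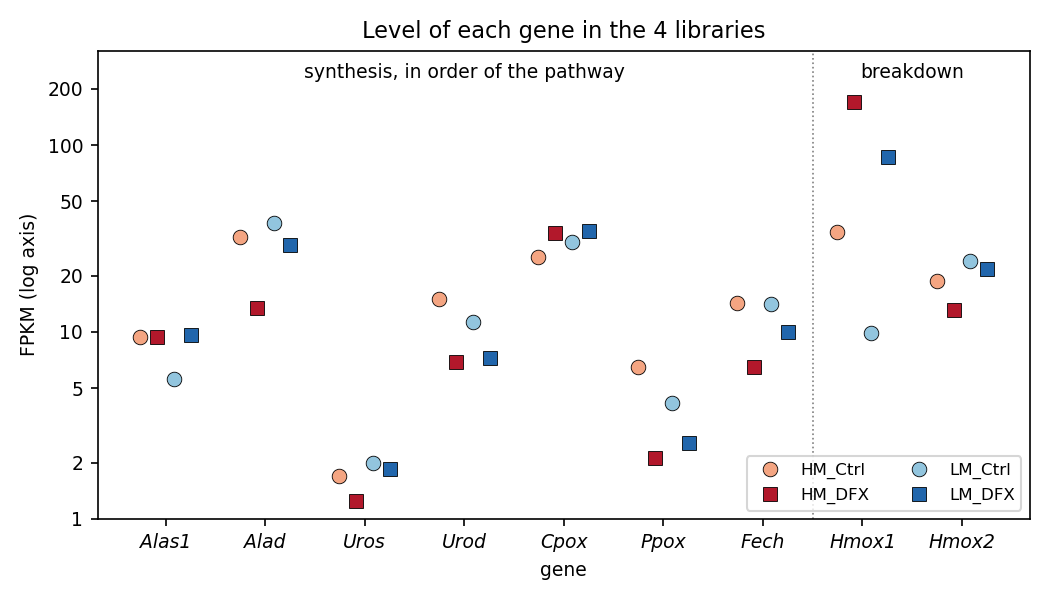
FPKM of the 9 genes on a log axis, with 1 point per library (circles for DMSO, squares for DFX) and the synthesis genes in pathway order to the left of the dotted line. Hmox1 spans the widest range, from 9.91 in LM_Ctrl to 169 in HM_DFX, and the HM_DFX square is the lowest point for Alad, Uros, Urod, Ppox, Fech and Hmox2.

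Alas1 (ENSMUSG00000032786, chr9:106233455-106248654 of mm10) encodes the 5–aminolevulinate synthase of non–erythroid cells, the rate–limiting enzyme of the pathway. In 4T1–HM its FPKM was 9.35 with DMSO and 9.40 with DFX, and in 4T1–LM 5.58 and 9.63. The 3 libraries other than LM_Ctrl lay close together, and LM_Ctrl stood below them. The ratio of DFX to DMSO was 1.005 in 4T1–HM (interval 0.907 to 1.11) and 1.72 in 4T1–LM (1.54 to 1.93), a log2 value of 0.69 that is under the 2-fold threshold. Alas2, the erythroid form of the enzyme, was not detected beyond 1 fragment in LM_Ctrl.

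Alad (ENSMUSG00000028393, chr4:62509169-62519918) encodes aminolevulinate dehydratase, which condenses the product of the first step into porphobilinogen. The FPKM in HM_Ctrl and HM_DFX was 32.3 and 13.4, and in LM_Ctrl and LM_DFX 38.4 and 29.2, with HM_DFX well below the other libraries. The level fell in 4T1–HM by 1.21 on the log2 scale, 2.41-fold on the FPKM scale (interval 2.13 to 2.72). In 4T1–LM it was 1.31-fold lower with DFX (1.21 to 1.43).

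Uros (ENSMUSG00000030979, chr7:133686243-133710072), which encodes the synthase that closes the porphyrin ring in its natural isomer, was the least abundant of the 9 genes in every library. Its FPKM with DMSO and DFX was 1.70 and 1.25 in 4T1–HM and 1.99 and 1.84 in 4T1–LM, from 64 to 144 fragments. The interval of the ratio of DFX to DMSO included 1 in both clones (0.527 to 1.01 in 4T1–HM and 0.717 to 1.19 in 4T1–LM), so a change was not detectable at this depth.

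Urod (ENSMUSG00000028684, chr4:116989965-116994413) encodes uroporphyrinogen decarboxylase, the last cytosolic enzyme. The FPKM in HM_Ctrl and HM_DFX was 15.0 and 6.91, and in LM_Ctrl and LM_DFX 11.3 and 7.30. Both DFX libraries were below both DMSO libraries, and they lay close to each other. The level fell 2.17-fold in 4T1–HM (interval 1.88 to 2.52) and was 1.55-fold lower with DFX in 4T1–LM (1.36 to 1.78).

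Cpox (ENSMUSG00000022742, chr16:58670208-58680391) encodes coproporphyrinogen oxidase, which acts at the intermembrane space of the mitochondrion and needs oxygen but no iron. Its FPKM with DMSO and DFX was 25.1 and 33.7 in 4T1–HM and 30.2 and 34.9 in 4T1–LM. The level was higher in both DFX libraries than in both DMSO libraries, by 1.34 times in 4T1–HM (1.25 to 1.44) and 1.15 times in 4T1–LM (1.08 to 1.23), which is far from 2-fold. It was the most even of the 9 genes, with a ratio of 1.39 between its highest and its lowest library.

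Ppox (ENSMUSG00000062729, chr1:171275990-171281186) encodes protoporphyrinogen oxidase, the mitochondrial enzyme after coproporphyrinogen oxidase. In 4T1–HM its FPKM was 6.48 with DMSO and 2.13 with DFX, and in 4T1–LM 4.17 and 2.55. As with Urod, both DFX libraries were below both DMSO libraries. The fall in 4T1–HM was the steepest of the 7 synthesis genes on the FPKM scale, 3.05-fold (interval 2.52 to 3.71) from 490 and 138 fragments, while 4T1–LM had a 1.63-fold lower level with DFX (1.38 to 1.94). Exons of B4galt3 on the other strand cover 17.5% of the exon bases of Ppox, and the setting of strand at counting is not given in the sources used here.

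Fech (ENSMUSG00000024588, chr18:64456550-64489066) encodes ferrochelatase, the iron–sulfur enzyme that places iron in the ring. The FPKM in HM_Ctrl and HM_DFX was 14.3 and 6.50, and in LM_Ctrl and LM_DFX 14.2 and 9.96. The DMSO libraries of the clones were level, and both DFX libraries were lower. The level fell 2.20-fold in 4T1–HM (interval 1.91 to 2.54) and was 1.42-fold lower with DFX in 4T1–LM (1.27 to 1.59). On the log2 scale Fech and Urod were just past the threshold in 4T1–HM, at −1.03 and −1.02. Median–ratio scaling over the genes above 0 in all libraries, which moves the median of all genes in this comparison from −0.10 to 0.00, put them at −0.90 and −0.89 and left Alad and Ppox as the called falls.

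**Figure D2:**
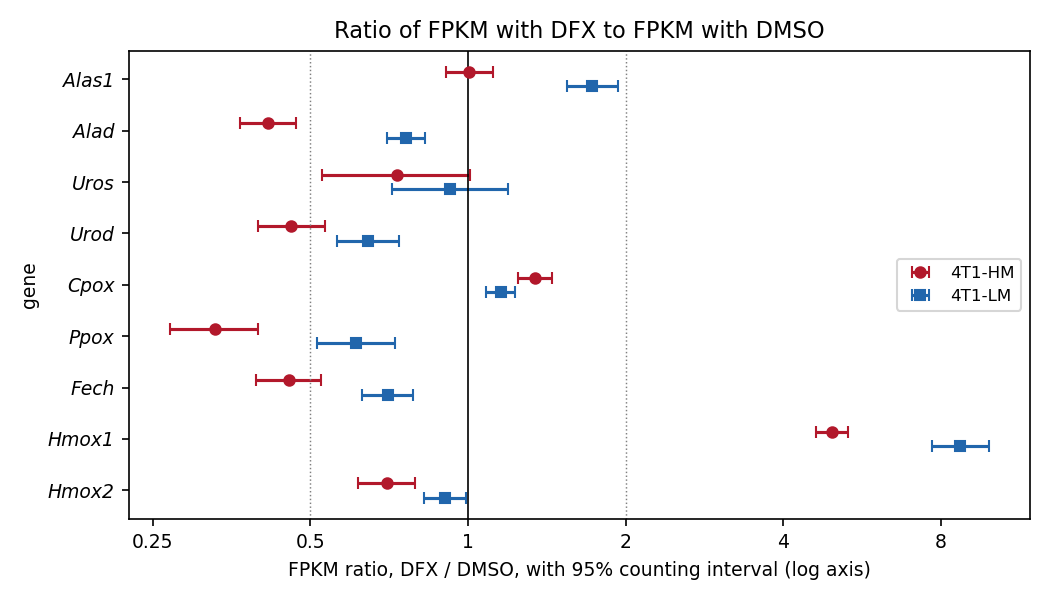
Ratio of the FPKM with DFX to that with DMSO for each gene in 4T1–HM (circles) and 4T1–LM (squares) on a log axis, with 95% counting intervals and dotted lines at 2-fold. Alad, Urod, Ppox and Fech lie left of the lower dotted line in 4T1–HM, at 0.415, 0.460, 0.328 and 0.455, and between that line and 1 in 4T1–LM.

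The bases upstream of 3 genes that fell together in 4T1–HM (Alad, Urod, Ppox) and of Cpox, which did not, are shown so that the start regions of neighbouring steps can be compared. RefSeq starts on GRCm38.p6, the same assembly as mm10, matched 7 of the 9 genes, all but Fech and Hmox1. Each line gives the 250 bases before the first start listed, on the strand of the gene, and GENCODE release M21 places no exon in these 4 windows. Alad has 2 starts listed, and the window of the other, chr4:62519910-62520159, which lies nearer the gene as given above, is not shown. Capitals mark ACGTG or GCGTG on either strand, the cores of HIF–binding motifs.
Alad, chr4:62520064-62520313, minus strand: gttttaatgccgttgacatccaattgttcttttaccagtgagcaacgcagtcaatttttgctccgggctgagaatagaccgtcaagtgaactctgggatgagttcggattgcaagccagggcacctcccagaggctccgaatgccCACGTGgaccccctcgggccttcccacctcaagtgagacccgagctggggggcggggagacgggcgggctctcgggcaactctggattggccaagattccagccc
Urod, chr4:116994414-116994663, minus strand: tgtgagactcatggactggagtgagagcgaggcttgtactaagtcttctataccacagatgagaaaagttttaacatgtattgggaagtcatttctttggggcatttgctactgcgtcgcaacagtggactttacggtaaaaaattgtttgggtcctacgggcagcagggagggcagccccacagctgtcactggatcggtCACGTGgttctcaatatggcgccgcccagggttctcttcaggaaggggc
Ppox, chr1:171281187-171281436, minus strand: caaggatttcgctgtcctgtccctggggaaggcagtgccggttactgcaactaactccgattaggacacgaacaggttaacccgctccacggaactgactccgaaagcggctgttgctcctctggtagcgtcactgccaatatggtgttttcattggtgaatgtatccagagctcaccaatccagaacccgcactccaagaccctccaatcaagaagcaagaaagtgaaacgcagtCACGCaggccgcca
Cpox, chr16:58669958-58670207, plus strand: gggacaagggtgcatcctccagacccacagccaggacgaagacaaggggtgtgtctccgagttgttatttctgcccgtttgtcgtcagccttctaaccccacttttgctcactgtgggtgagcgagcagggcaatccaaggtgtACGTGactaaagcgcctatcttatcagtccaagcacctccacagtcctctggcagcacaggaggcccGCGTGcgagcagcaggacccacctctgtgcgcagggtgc

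The capitals in Alad and Urod are the palindrome CACGTG, an E–box, which holds ACGTG on both strands. The windows of a gene can be several, 12 for these 7 genes, and a gene counts where any holds the letters. ACGTG was found for 4 of the 7 matched genes (Alad, Cpox, Urod and Uros), and 18.5% of the 27025 genes of the table have it in at least 1 such window. CACGTG was found for Alad, Urod and Uros, against 6.86% of genes. GCGTG was found for Alad, Alas1, Cpox and Ppox, against 30.9%. TGACNNNGC, the antioxidant response motif bound by NRF2 and BACH1 with small MAF proteins, was in none of the windows of the 7 genes, and 11.5% of genes have it. Of the other motifs searched, GGGCGG was found for 5 of the 7 genes (35.4% of all genes) and CCAAT for 3 (37.5%). These are matches of letters in windows of 250 bases, searched on both strands.

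Hmox1 (ENSMUSG00000005413, chr8:75093621-75100589) encodes heme oxygenase–1, the inducible enzyme of heme breakdown. Its FPKM with DMSO and DFX was 34.2 and 169 in 4T1–HM and 9.91 and 86.1 in 4T1–LM, from 1003, 4258, 273 and 3299 fragments. Both DFX libraries were above both DMSO libraries, and within each treatment 4T1–HM was above 4T1–LM. The level rose 4.95-fold in 4T1–HM (interval 4.62 to 5.31) and 8.69-fold in 4T1–LM (7.68 to 9.86). Ordered by log2 value from the largest rise, Hmox1 took place 74 of the 12669 genes in 4T1–HM and place 62 in 4T1–LM. No 31-mer of its transcripts occurs in another gene, and no exon on the other strand overlaps its exons.

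Hmox2 (ENSMUSG00000004070, chr16:4726361-4766742) encodes heme oxygenase–2, the constitutive enzyme. In 4T1–HM its FPKM was 18.6 with DMSO and 13.0 with DFX, and in 4T1–LM 24.0 and 21.6. The level was lower in HM_DFX than in the other libraries, 1.43-fold below HM_Ctrl (interval 1.26 to 1.62), while LM_DFX was 1.11-fold below LM_Ctrl (1.01 to 1.22). Exons of Cdip1 on the other strand cover 40.2% of the exon bases of Hmox2, which is a limit on its counts. With DFX the summed FPKM of both heme oxygenases went from 52.8 to 182 in 4T1–HM and from 33.9 to 108 in 4T1–LM, and Hmox1 accounted for 64.7% and 92.9% of it in HM_Ctrl and HM_DFX and for 29.3% and 79.9% in LM_Ctrl and LM_DFX. The less abundant of the pair in LM_Ctrl was thus Hmox1, and in the other libraries Hmox2.

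Ratios between these genes within 1 library do not depend on how libraries are scaled. Cpox and Ppox encode consecutive enzymes, and the ratio of their FPKM went from 3.88 in HM_Ctrl to 15.8 in HM_DFX and from 7.26 in LM_Ctrl to 13.7 in LM_DFX. The DMSO libraries differed in this ratio, and the DFX libraries were near each other. Between the first and the last enzyme, the ratio of Alas1 to Fech moved from 0.654 to 1.44 with DFX in 4T1–HM and from 0.394 to 0.967 in 4T1–LM. It grew by 2.21 times in 4T1–HM and 2.46 times in 4T1–LM, through a lower Fech in the former and through both genes in the latter. The ratio of Hmox1 to Hmox2 moved from 1.84 to 13.0 and from 0.413 to 3.98. Over the 7 synthesis genes, the summed FPKM was 104 without and 73.3 with DFX in 4T1–HM, and 106 and 95.4 in 4T1–LM.

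Next, the clones were compared with DMSO alone. Hmox1 was the single gene of the 9 past 2-fold, 3.45-fold higher in HM_Ctrl than in LM_Ctrl (interval 3.02 to 3.96), a log2 value of 1.69, where 3.65% of all genes tested were called higher and 3.15% lower. Alas1 was 1.67-fold higher in HM_Ctrl (1.49 to 1.88), Ppox 1.56-fold (1.34 to 1.80) and Urod 1.32-fold (1.17 to 1.49). Hmox2 was 1.29-fold lower (1.16 to 1.42), Cpox 1.20-fold (1.12 to 1.30) and Alad 1.19-fold (1.09 to 1.30). For Fech the ratio of 1.01 had an interval of 0.904 to 1.12, and for Uros the ratio of 0.856 had one of 0.648 to 1.13, so neither differed beyond counting error. The median log2 value of the 9 genes was 0.01, as was that of all genes tested.

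**Figure D3:**
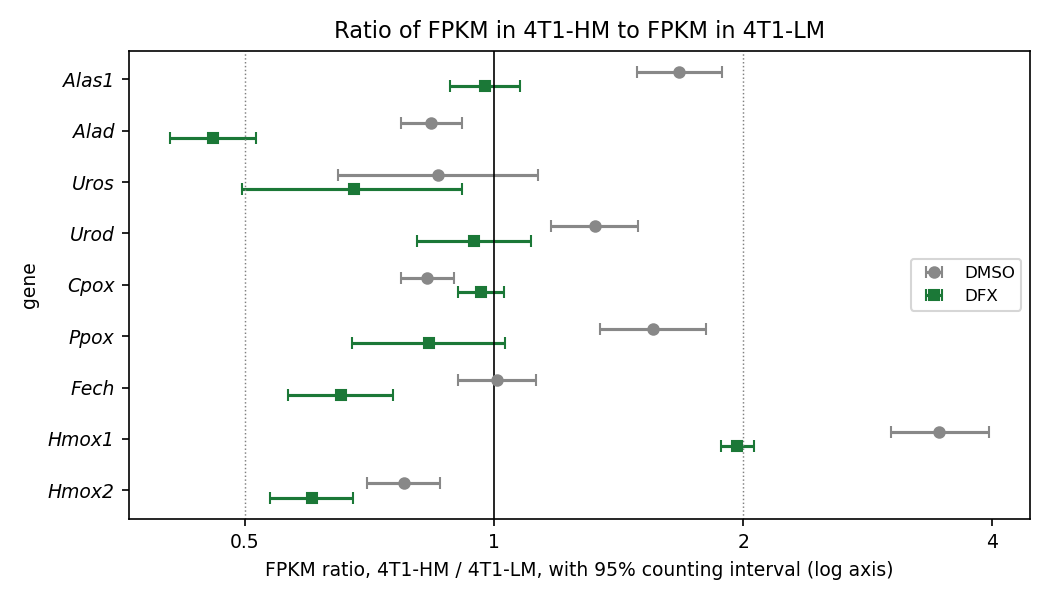
Ratio of the FPKM in 4T1–HM to that in 4T1–LM for each gene with DMSO (grey circles) and with DFX (green squares) on a log axis, with 95% counting intervals and dotted lines at 2-fold. The ratio of Hmox1 is 3.45 with DMSO and 1.97 with DFX, and the ratio of Alad is 0.841 with DMSO and 0.458 with DFX.

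With DFX in both clones, Alad was the single gene of the 9 past 2-fold, 2.18-fold lower in HM_DFX than in LM_DFX (interval 1.94 to 2.46), where 8.36% of all genes tested were called and 5.05% called lower. All 7 synthesis genes were below their LM_DFX level, but for Alas1, Urod, Cpox and Ppox the intervals of the ratio included 1, and the signs of Alas1 and Cpox turned with scaling. Fech was 1.53-fold lower in HM_DFX (1.33 to 1.77), Hmox2 1.66-fold (1.48 to 1.86) and Uros 1.48-fold (1.09 to 2.01). Hmox1 was 1.97-fold higher in HM_DFX (1.88 to 2.06), with a log2 value of 0.97, at the edge of the threshold, where 3.31% of genes were called higher. Alas1, Urod and Ppox, which were higher in HM_Ctrl than in LM_Ctrl beyond counting error, thus reached like levels in the DFX libraries.

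The responses of the clones were then set against each other, as the log2 change with DFX in 4T1–HM minus that in 4T1–LM. No gene of the 9 reached a difference of 2-fold, while 8.9% of all genes tested did, 3.52% above and 5.38% below 0. The difference was below 0 for 8 of the 9 genes, from −0.83 for Alad, −0.72 for both Hmox1 and Ppox, and −0.68 for Alas1 to −0.19 for Uros, and it was 0.21 for Cpox. Their median was −0.56 and that of all genes tested −0.08. For Alad, Urod, Ppox, Fech and Hmox2 the lower value in 4T1–HM was a larger decrease, for Hmox1 a smaller rise, and for Alas1 a ratio near 1 where 4T1–LM had a higher value. Whether these differences exceed the variation between cultures was not tested.

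**Figure D4:**
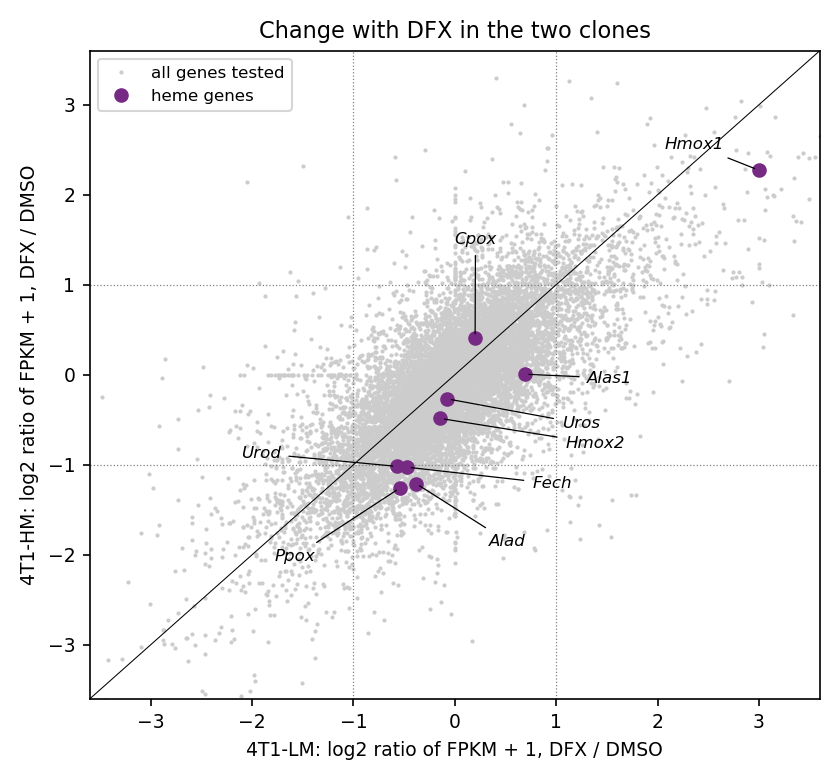
Change with DFX in 4T1–LM (x axis) and in 4T1–HM (y axis), as log2 of the ratio of FPKM + 1, for the 12669 genes tested (grey, of which 38 lie outside the axes) and the 9 heme genes (purple), with dotted lines at 2-fold and a diagonal of equal change. Hmox1 lies at 3.00 and 2.27, and every heme gene except Cpox lies below the diagonal.

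Other genes of the pathway were read from a list written from general knowledge, of which 35 of 37 symbols were matched and 31 passed the filter. Flvcr1 and Flvcr2 were not analysed here. With DFX, 6 of the 31 rose and 2 fell in 4T1–HM (25.8% against 19.3% of all genes), and 5 rose and 0 fell in 4T1–LM (16.1% against 15.8%). The falls in 4T1–HM were in Blvra, which encodes the biliverdin reductase that acts after the heme oxygenases, and in Gapdh. The FPKM of Blvra with DMSO and DFX was 7.98 and 3.02 in 4T1–HM and 9.20 and 6.35 in 4T1–LM. It thus moved opposite to Hmox1 in both clones, but passed the threshold in 4T1–HM alone. In 4T1–LM the ratio was 0.690 (interval 0.593 to 0.804). Gapdh, a glycolytic enzyme that also carries heme, shares 27.2% of its 31-mers with other genes, and its counts are therefore uncertain. Its FPKM with DMSO and DFX was 22.9 and 10.7 in 4T1–HM and 7.06 and 16.8 in 4T1–LM.

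Apart from Gapdh in 4T1–LM, the genes that rose were regulators and a protease. Bach1, the repressor of Hmox1 that heme inactivates, went from an FPKM of 5.04 to 16.0 in 4T1–HM, a 3.19-fold rise, and had 6.18 and 12.0 in 4T1–LM, a log2 value of 0.86. The small MAF genes Mafk and Maff, partners of both BACH1 and NRF2, rose in both clones, by log2 values of 2.12 and 1.45 in 4T1–HM and 1.66 and 2.23 in 4T1–LM. For the third small MAF gene, Mafg, the values were 0.43 and 0.41. Bach2 reached an FPKM of only 1.89 in HM_DFX, with a log2 value of 1.21 there. Nfe2l2, which encodes NRF2, the activator of Hmox1, had log2 values of −0.27 and 0.11, and Keap1, its inhibitor, 0.08 and 0.41.

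Among genes that act on Alas1, Nr1d1 encodes REV–ERBα, a nuclear receptor that binds heme and represses transcription. The FPKM in HM_Ctrl and HM_DFX was 8.95 and 39.6, and in LM_Ctrl and LM_DFX 7.69 and 63.2, a rise of 4.43-fold and of 8.23-fold. Lonp1, which encodes a mitochondrial protease that degrades the ALAS1 protein, rose from 82.6 to 223 in 4T1–HM and from 70.5 to 309 in 4T1–LM. Clpx, a partner of another mitochondrial protease with a role in ALAS turnover, had an FPKM ratio of DFX to DMSO within 2-fold in both clones. Nr1d2, Nrf1 and the heme–regulated kinase gene Eif2ak1 were within 2-fold in every comparison. Ppargc1a, the remaining regulator of Alas1 on the list, was not detected beyond 3 fragments in LM_DFX.

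Of the transporters, Tspo and Slc25a37 passed the threshold, and neither through DFX within a clone. Tspo, an outer mitochondrial membrane protein that binds porphyrins, was lower in HM_Ctrl than in LM_Ctrl (FPKM 92.6 against 213) and in HM_DFX than in LM_DFX (50.7 against 172). The other gene called between the clones with DMSO was Gapdh, so that 2 of the 31 were called where 6.8% of all genes were. Slc25a37, which encodes the mitochondrial iron importer mitoferrin–1, had an FPKM of 55.7 and 33.9 in 4T1–HM and of 34.7 and 46.2 in 4T1–LM. Its log2 change in 4T1–HM minus that in 4T1–LM was −1.11. Abcg2, Slc46a1 and Abcb10 passed 2-fold in a comparison by the FPKM ratio alone, without the + 1. With DMSO and DFX, the FPKM of Abcg2 was 0.146 and 0.051 in 4T1–HM and 1.22 and 0.392 in 4T1–LM. For Slc46a1 it was 1.22 and 0.271, and 0.908 and 0.831, in the same order. Abcb10 had 6.24 and 3.43, and 10.8 and 5.08. Abcg2 and Slc46a1 rest on few fragments, from 6 to 156 and from 12 to 63.

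**Figure D5:**
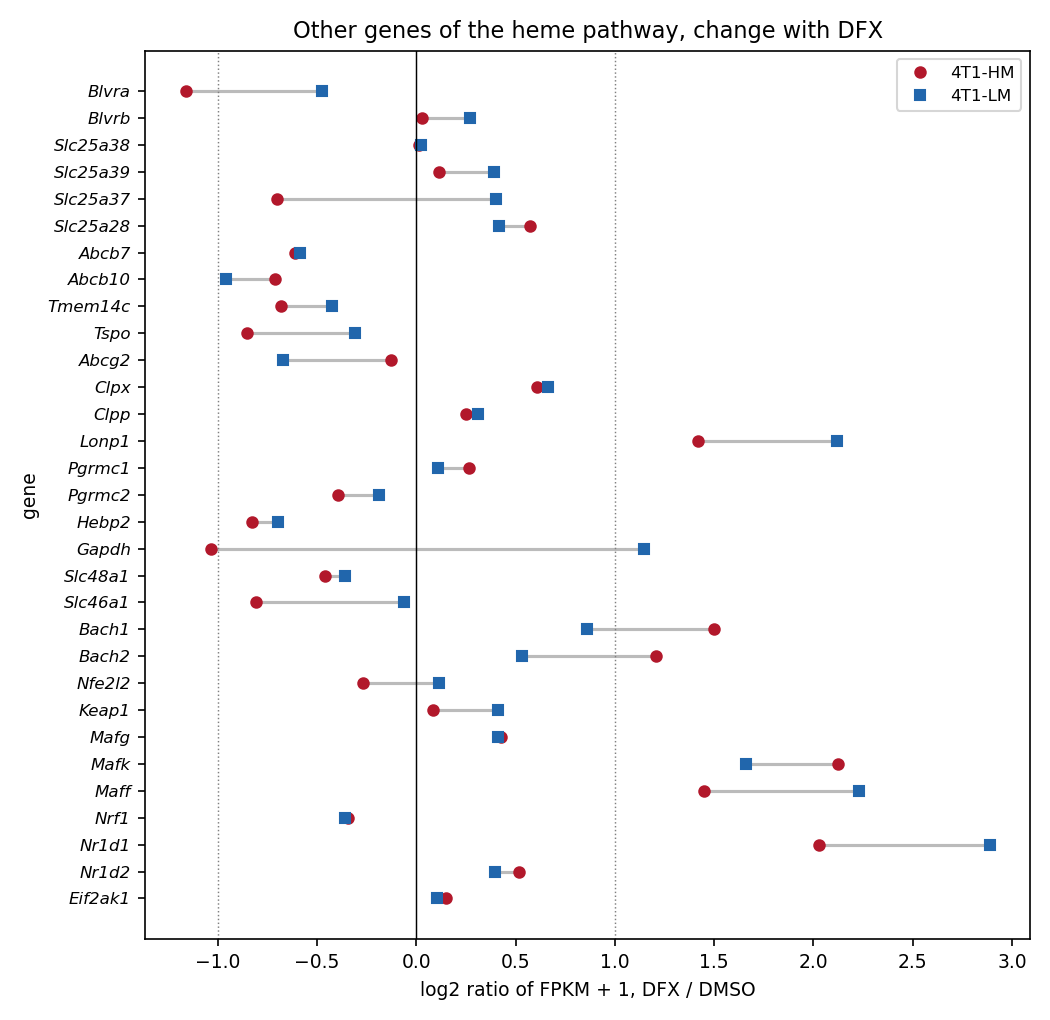
Change with DFX, as log2 of the ratio of FPKM + 1, for the 31 other heme pathway genes that passed the filter, in 4T1–HM (circles) and 4T1–LM (squares), with dotted lines at 2-fold. Lonp1, Mafk, Maff and Nr1d1 lie beyond the right dotted line in both clones, and Blvra and Gapdh beyond the left one in 4T1–HM.

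The genes most like Alas1 and Hmox1 were found by the Euclidean distance between log2 profiles centred over the 4 libraries, for protein–coding genes that reached FPKM 10 in their highest library. Over only 4 libraries such likeness is a description. For Alas1, compared with 6295 genes, the nearest were Parp4, Dcaf5 and Cdk17, at distances of 0.048, 0.050 and 0.053, all of them lowest in LM_Ctrl. For Hmox1, compared with 6294 genes, the nearest were Dusp1, which encodes a MAP kinase phosphatase, Acot2 and the autophagy receptor gene Sqstm1, at larger distances of 0.44, 0.45 and 0.58. The FPKM of Sqstm1 with DMSO and DFX was 428 and 1376 in 4T1–HM and 136 and 744 in 4T1–LM. Dusp1, Acot2 and Sqstm1 all had the order of libraries of Hmox1, which their choice by profile favours. Acot2 shares 37.3% of its 31-mers with other genes.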

How the data were processed

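Poly(A) RNA of the 4 conditions was sequenced from directional libraries as paired–end reads. Per the submitters' processing notes, FastQC, Trimmomatic, HISAT2, featureCounts and build mm10 were used. Versions and the setting of strand are not given in the sources used here. The authors deposited FPKM for 49585 genes, 1 library per condition. The paper called genes with edgeR, which was not repeated on FPKM of single libraries.

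Exon lengths of GENCODE release M21 turned the FPKM into fragments. For 96.8% of 18236 genes above 0 with matching coordinates, fragments were whole within 0.02 in all 4 libraries. For Alas1, Cpox and Fech the smallest length that gave whole fragments was used, which makes their intervals, if anything, too wide. Changes were log2 ratios of FPKM + 1 over 12669 genes (FPKM 1 or more in any library), called at 2-fold. Alternatives were median–ratio, 75th percentile and TPM scaling, thresholds of 1.5-fold and 4-fold, a pseudocount of 0.1, a filter on the mean over libraries (1 or more) and none. The call was tested on simulated data. Named genes were the 9 members, pathway genes past 2-fold in a comparison, the 3 nearest profiles of Alas1 and Hmox1, and Vegfa and Slc2a1. Other pathway genes are given where a role is described or, for transporters, where the FPKM ratio passed 2-fold, named after their values were seen. The members and lists were chosen with earlier results of these data known. 1 item is not reported here and was left out of the pathway list. Python 3.11.15, pandas 2.3.3 and SciPy 1.17.1 were used.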

Additional observations from a re-analysis of the deposited data

Results flagged for a closer look

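The DFX response had opposite signs in the clones for 3 genes of the wider pathway list, and the difference was not tested in any of them. For Slc25a37, mitoferrin–1, the log2 change was −0.70 in 4T1–HM and 0.40 in 4T1–LM, a difference of −1.11. For Gapdh it was −1.03 in 4T1–HM and 1.15 in 4T1–LM, a difference of −2.18, and other genes hold 27.2% of its 31-mers. For Nfe2l2, which encodes NRF2, it was −0.27 and 0.11, a difference of −0.38.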

How the results depend on the processing

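Each condition had 1 library, so no replicate could be left out. No paired analysis was possible because, within each comparison, 1 library stands against 1 and the labels give no replicate numbers. A fit of DFX over both clones, with the clone as a block and 1 residual degree of freedom, answers another question and was not run. Of 45 log2 changes of the 9 genes, 41 kept their sign under the pseudocount and the scalings. The exceptions were values near 0, namely Alas1 in HM_DFX against HM_Ctrl (−0.01 to 0.13) and in HM_DFX against LM_DFX (−0.03 to 0.02), Cpox in HM_DFX against LM_DFX (−0.05 to 0.01) and Fech in HM_Ctrl against LM_Ctrl (−0.01 to 0.06). Of 40 counts of called members under alternatives, 29 stayed within 1.5 times. Median–ratio scaling gave 3 called members instead of 5 in HM_DFX against HM_Ctrl, since Fech and Urod crossed the threshold, and the share of lower genes among all called in this comparison went from 64.1% to 53.3%. Each scaling (median–ratio, 75th percentile and TPM) gave 2 instead of 1 in HM_DFX against LM_DFX, Hmox1 with a log2 value of 1.01, 1.01 and 1.03 joining Alad. At 1.5-fold the counts were 2 in HM_Ctrl against LM_Ctrl, 2 in LM_DFX against LM_Ctrl (Alas1 and Hmox1 in both), 3 in HM_DFX against LM_DFX and 4 for the difference in response (Alad, Alas1, Hmox1 and Ppox), where 19.2%, 36.4%, 24.5% and 26.2% of all genes were called. At 4-fold they were 0 in HM_Ctrl against LM_Ctrl, 1 in HM_DFX against HM_Ctrl and 0 in HM_DFX against LM_DFX, with 0.766%, 2.19% and 0.75% of all genes. Over all genes, called shares moved by over 1.5 times with a pseudocount of 0.1 (12.3%, 24.2%, 15.7% and 16.3% in HM_Ctrl against LM_Ctrl, LM_DFX against LM_Ctrl, HM_DFX against LM_DFX and the difference in response). Under TPM they were 12.1%, 20.9%, 13.7% and 15.9% of 14999 genes, and 25.9% in HM_DFX against HM_Ctrl. With no filter the shares of all 49585 genes were 1.74%, 4.04%, 2.14% and 2.35%, and 4.93% in HM_DFX against HM_Ctrl. Of the 9 genes, depth limits Uros most, with 64 fragments in HM_DFX.

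For the 31 other pathway genes, whose alternatives were chosen after seeing the data, a pseudocount of 0.1 gave 8 called instead of 5 in LM_DFX against LM_Ctrl, 6 instead of 1 in HM_DFX against LM_DFX and 4 instead of 2 for the difference in response, which was also 4 under TPM. At 1.5-fold the counts were 6 in HM_Ctrl against LM_Ctrl, 16 in HM_DFX against HM_Ctrl, 10 in LM_DFX against LM_Ctrl, 10 in HM_DFX against LM_DFX and 9 for the difference in response, and at 4-fold 0, 2, 3, 0 and 1 in the same order. Of all genes, 19.2%, 42.1%, 36.4%, 24.5% and 26.2% were called at 1.5-fold and 0.766%, 2.19%, 2.48%, 0.75% and 0.86% at 4-fold. Counts at other thresholds differ by construction. For the pseudocount the cause was not tested.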
